A study of Mus musculus with 10 samples.

Results

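Occupancy of chromatin by Qki-5 and by RNA polymerase II (Pol II) was compared in WT mouse oligodendrocytes, obtained by differentiation of cultured neural stem cells (NSCs), using 1 ChIP-seq peak list for each protein. All rows of both lists were taken, so that 7539 Qki-5 peaks and 32280 Pol II peaks, or 39819 of the 53186 regions in the 6 peak lists of the study, were compared. The cells were labelled wild type, were given as from an FvB/C57BL6 hybrid and were used at passage 7. The paper, in contrast, describes the mice of its study as pure C57BL/6J, and this difference was not resolved. Both libraries were called against the same input chromatin. The other lists come from Srebp2 ChIP and from *Qk*-/- cells. Of these, only the *Qk*-/- Qki-5 list (427 peaks) was used here, as a control for the Qki-5 antibody. Whether any Qki-5 remained in the *Qk*-/- cells was not tested. The Qki-5 antibody was home-made against a peptide, and the Pol II antibody (Abcam ab817) recognises the repeat of the carboxy-terminal domain. In the methods, NSCs were derived from the brains of newborn *Nestin-CreER*T2;*Qk* L/L pups and *Qk* was deleted in culture with 4-hydroxytamoxifen. Whether the WT cells carried these alleles is not given in the sources used here. With 1 library for each antibody, the spread between replicates is unknown and no test was made. Shares are given with exact Clopper-Pearson 95% intervals, which cover counting error only, and the read depth behind the lists is unknown. The deposited Qki-5 list is shorter than the peak set that the paper describes, so a site without a Qki-5 peak here may belong to that set.

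Qki is a STAR-family RNA-binding protein that controls splicing and stability of RNA in glia, and Qki-5 is its nuclear isoform. Pol II initiates at transcription start sites (TSSs) and at many genes pauses a short distance downstream, so that its ChIP-seq summit usually lies just inside the gene. Most promoters of broadly expressed genes are CpG islands, where CpG dinucleotides are frequent, and many fire in both directions from a pair of divergent TSSs. The fold of a peak is the ratio of the signal at its summit to the local background that MACS2 estimated from the input, so folds were compared within a list only. A promoter was the region within 2000 bp of a TSS of the GENCODE M21 basic annotation on mm10 (GRCm38), and a protein was called there when 1 of its peaks shared 1 bp or more with that region.

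The sequences under Qki-5 summits are shown for genes from each class described here, since the median CpG count around the summit differed between the classes, with ranges that overlap. Each is the 29 bases of the GRCm38 reference centred on the summit of the strongest Qki-5 promoter peak, along the strand of the gene, with each CpG in capitals. The 5 genes with both Qki-5 and Pol II come before 2 genes with Qki-5 only whose peak was also called in *Qk*-/- cells, and 4 genes with Qki-5 only whose peak was not.
Cebpd: gCGcttttcagcctggacagccCGgtgCG
Tob2: tgggCGgagggaCGcatcaCGcaggggtg
Rps20: cCGggtcacaaagcaccCGgatgCGcaCG
Kmt5b: gCGCGgagcaaaggtgCGCGcaCGctCGg
Kdm3a: tttctttctggcctcaaagtCGataacCG
Igf2bp3: gccccccctttcagaggttggttttggtt
Tlx2: CGcttcttgcagagccaggtagccacaac
Hoxa3: agCGcCGcatttgcctcctagggcCGctg
Dlx2: tcCGgaaaccaCGcaccatctactccagt
Pax5: ctagatataggcagaaaCGaaatagtgat
Sp8: cctcCGCGgcacttcaaagcCGgagaggg
The windows with both proteins were *Cebpd* at chr16:15887334-15887362 (plus strand), *Tob2* at chr15:81858332-81858360 (minus), *Rps20* at chr4:3835634-3835662 (minus), *Kmt5b* at chr19:3768063-3768091 (plus) and *Kdm3a* at chr6:71633235-71633263 (minus). Those with Qki-5 only were *Igf2bp3* at chr6:49218561-49218589 (minus), *Tlx2* at chr6:83070722-83070750 (minus), *Hoxa3* at chr6:52211799-52211827 (minus), *Dlx2* at chr2:71545486-71545514 (minus), *Pax5* at chr4:44712841-44712869 (minus) and *Sp8* at chr12:118847170-118847198 (plus).

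The promoters with Pol II were checked against marker genes of the cell types that the culture could hold. Pol II was called at 12 of 12 NSC markers, 7 of 10 oligodendrocyte precursor markers, 7 of 10 astrocyte markers, 4 of 12 neuron markers and 1 of 9 microglia markers, beside 54.1% of all protein-coding genes. Of 17 markers of myelin and mature oligodendrocytes, only *Cnp*, *Car2* and *Trf* had a Pol II promoter peak, and *Mag*, *Mog* and *Myrf* were among the 14 without one. The names of the peaks in the deposited lists begin with mNSC. The markers with Pol II were thus mainly those of NSCs, precursors and astrocytes, which goes against a mature oligodendrocyte identity, and the cells are called oligodendrocytes here by their label only. A promoter without a called peak may still carry Pol II below the threshold.

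The shares of the lists that overlapped were unequal, as were their lengths. A Pol II peak overlapped 5976 of 7539 Qki-5 peaks (79.3%, 78.3 to 80.2), and a Qki-5 peak overlapped 5543 of 32280 Pol II peaks (17.2%, 16.8 to 17.6). With only the 7539 strongest Pol II peaks by fold, as many as Qki-5 peaks, these shares were 48.5% and 43.4%. In bases, 73.2% of the 3.29 Mb under Qki-5 peaks lay in Pol II peaks, and 7.55% of the 31.9 Mb under Pol II peaks lay in Qki-5 peaks. Of the Qki-5 peaks, 4898 lay wholly inside a Pol II peak. Most Pol II peaks with Qki-5 held 1 Qki-5 peak and 376 held 2 or more. The most, 12 Qki-5 peaks, lay in the widest Pol II peak, which spans 51793 bp at chr3:19956911-20008703 near *Hps3* and has a fold of 24.0.

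The overlap depended on where the peak lay. At promoters, 4227 of 4594 Qki-5 peaks (92.0%, 91.2 to 92.8) overlapped Pol II, against 1749 of 2945 Qki-5 peaks outside promoters (59.4%, 57.6 to 61.2). Outside promoters the share was 61.9% of 1426 intronic Qki-5 peaks and 56.9% of 1368 intergenic ones. Among Pol II peaks, Qki-5 was found at 24.8% of 16000 in promoters, 12.2% of 5719 between genes and 9.73% of 8307 in introns. It was found at 2.37% of 843 in coding exons and 2.38% of 1260 in UTRs. Pol II peaks near gene ends were nearly free of Qki-5. Of the Pol II peaks outside promoters, 23.0% had a summit within 2000 bp of the end of a protein-coding gene, against 5.47% of the Qki-5 peaks outside promoters. A Qki-5 peak overlapped 76 of those 3743 Pol II peaks (2.03%, 1.60 to 2.53). In the other direction, a Pol II peak overlapped 117 of the 161 Qki-5 peaks near a gene end (72.7%, 65.1 to 79.4).

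**Figure D1:**
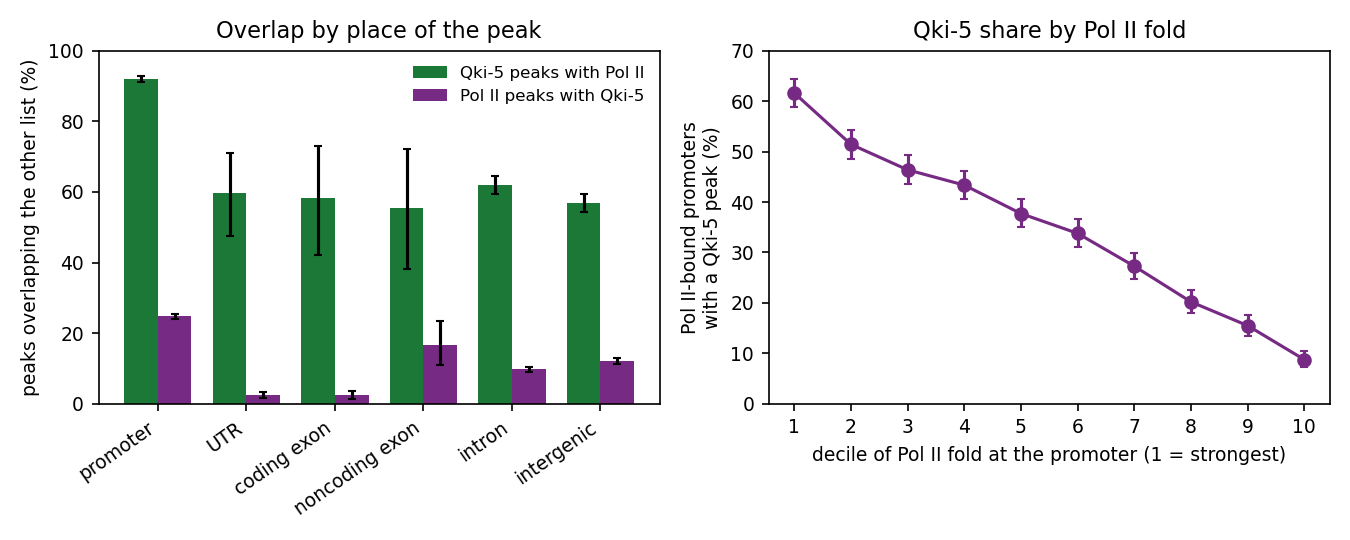
Left, share of Qki-5 peaks overlapping a Pol II peak and of Pol II peaks overlapping a Qki-5 peak (%) by the place of the peak. Right, share of Pol II-bound protein-coding promoters with a Qki-5 peak (%) by decile of the strongest Pol II fold. Error bars are 95% Clopper-Pearson intervals. The share falls from decile to decile, with 61.6% in the strongest and 8.75% in the weakest.

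Qki-5 was most frequent where Pol II was strongest. Over all Pol II peaks, 54.3% of the strongest decile of fold and 4.96% of the weakest overlapped Qki-5. Pol II peaks with Qki-5 had a median fold of 15.2 and a median width of 1454 bp, against 4.81 and 508 bp for those without. The widths matter for this count, since a wider peak has more bases to overlap. Counted over promoters, where the peaks of the proteins need not overlap each other, the order was the same. Of the 21951 protein-coding genes, Qki-5 was called at 19.4%, and 18.7% had both proteins. Of the 11879 with Pol II, 4110 had Qki-5 (34.6%, 33.7 to 35.5). That share was 61.6% (58.8 to 64.4) in the strongest decile of promoter Pol II fold, 37.7% (34.9 to 40.5) in the fifth and 8.75% (7.21 to 10.5) in the weakest. By width, 57.2% of promoters in the quintile with the widest Pol II peaks had Qki-5, against 11.99% in the narrowest. Fold and width of Pol II peaks rank together (rho = 0.73 over 32280 peaks), so their relations to Qki-5 cannot be told apart here.

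Among called peaks, the strength of the Qki-5 peak, in contrast, hardly followed that of Pol II. Sites under the threshold have no fold, and the Qki-5 folds of peaks with Pol II span a narrow range (quartiles 4.39 and 6.40). This limits what the ranks can show. Among the protein-coding promoters with both, the median Qki-5 fold was 5.48 in the strongest Pol II decile and 5.06 in the weakest, and 4.80 in deciles 7 and 8. Across overlapping pairs of peaks, the rank correlation of fold was −0.08 (Spearman's rho, n = 5971 pairs), and over the 4195 pairs near a TSS it was 0.08. Over the 4110 protein-coding genes with both it was 0.13. These coefficients are descriptions without a test, since the peaks share 1 input and neighbouring genes share peaks. At promoters, Qki-5 peaks with Pol II were weaker than those without. The median Qki-5 fold at promoters was 5.10 with Pol II and 5.81 without. Of these promoter peaks, 2.96% with Pol II and 22.6% without overlapped a *Qk*-/- Qki-5 peak, and the part of this in the difference was not tested. In quintiles of fold taken over all Qki-5 peaks, 84.3% of promoter peaks in the strongest quintile overlapped Pol II, against 94.6% in the weakest. Outside promoters the order was the other way, with 67.5% in the strongest and 55.4% in the weakest quintile.

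The 10 genes with the best mean rank in both lists included stress-responsive, ribosomal and chromatin genes. *Cebpd*, which encodes a stress- and cytokine-inducible transcription factor, had a Qki-5 fold of 10.9 and a Pol II fold of 107.7, with summits 62 and 48 bp downstream of its TSS. *Tob2*, of the antiproliferative Tob family, had 10.03 and 80.8. *Rps20*, a protein of the small ribosomal subunit, had 10.03 and 71.0. *Kmt5b*, a methyltransferase of histone H4, had 10.5 and 62.0, and *Kdm3a*, a demethylase of histone H3, had 12.9 and 48.0. In each of these 5 genes both summits were within 300 bp of a TSS of the gene. The metallothionein gene *Mt1*, whose product binds heavy metals, had the highest Qki-5 fold of the group (22.2, with a Pol II fold of 91.4). Its Qki-5 summit lay 1747 bp downstream of the TSS, past the annotated 3′ end of this short gene. The same held at *Mt2* (14.6 and 47.1), where the Qki-5 summit was 1921 bp from the TSS. *Eapp* (21.6 and 68.7) and *Grcc10* (9.54 and 65.8) share their peaks with neighbouring small RNA genes, since the nearest TSSs to both summits were those of *Gm22513* and *Rnu7*. *Epc1*, a subunit of a histone acetyltransferase complex, had 8.74 and 68.5.

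The ranks of the peaks diverged at other genes with both. *Mettl18*, a histidine methyltransferase gene, had a Qki-5 fold of 10.04 and a Pol II fold of 4.32. *Cdca7*, a gene of the cell cycle, had 10.5 and 4.95, *Slc38a7*, an amino acid transporter, 9.59 and 4.81, and *Cyp1b1*, a cytochrome P450, 9.93 and 5.68. At *Cdkn2a*, which encodes cell cycle inhibitors from separate promoters, the peaks (13.9 and 6.04) did not lie together, since the Qki-5 summit was 13097 bp downstream of the Pol II summit. At the other end were 2 chaperone genes and 3 others. *Hspa5*, the chaperone of the endoplasmic reticulum, had a Qki-5 fold of 3.42 and a Pol II fold of 95.5, and *Hspa8*, the constitutive cytosolic Hsp70, had 3.04 and 66.5. *Rsrp1* had 2.90 and 68.3, *Arl4a* 3.04 and 44.5, and *Gm13276* 2.92 and 44.9. Among the genes named for their ranks, Pol II folds above 40 stood beside Qki-5 folds from 2.90 to 22.2, a spread that follows from their choice by rank. Of these genes with both, the Qki-5 peaks of *Mt1*, *Kmt5b* and *Cdca7* were also called in *Qk*-/- cells.

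**Figure D2:**
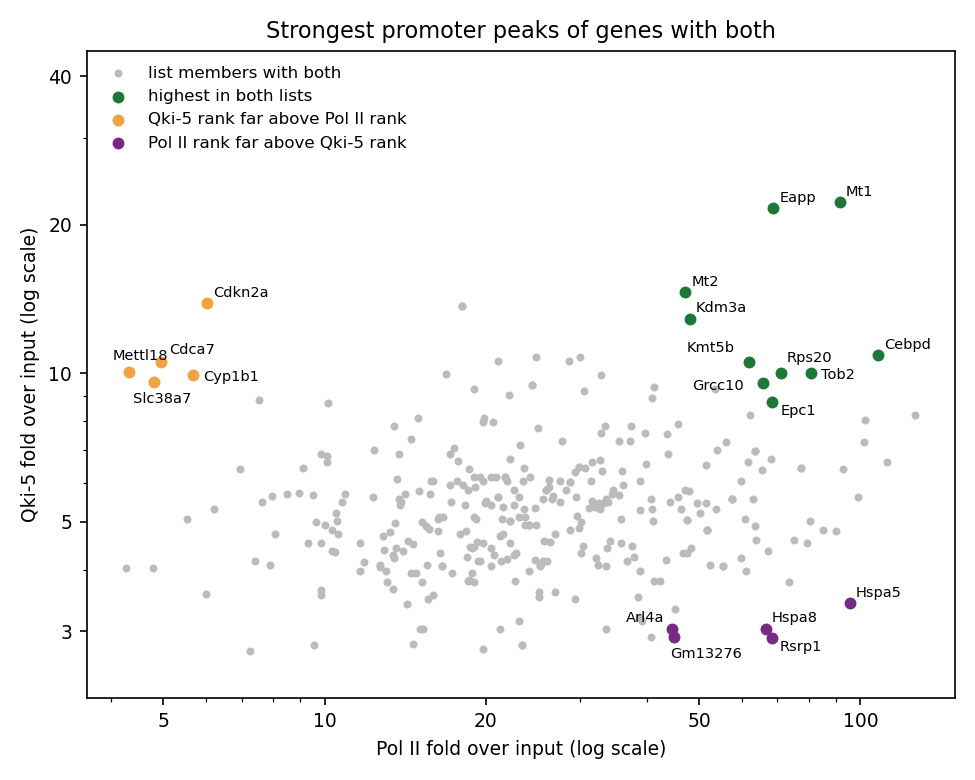
Qki-5 fold against Pol II fold over the input (both log scale) of the strongest promoter peaks. Coloured points are genes named for high ranks in both lists or for ranks far apart, and grey points are members of the gene lists with both proteins. *Hspa5* (3.42 and 95.5) and *Cebpd* (10.9 and 107.7) have similar Pol II folds and different Qki-5 folds.

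Some of the strongest Pol II promoters had no Qki-5. A Pol II peak and no Qki-5 peak was found at 7769 protein-coding genes (35.4%). The strongest whose Pol II summit lay at their own TSS were *Ctsl*, the lysosomal protease cathepsin L (94.6), *Ier5*, an immediate early gene (80.5), *Taf13*, a subunit of the general factor TFIID (71.7), and *Hist2h2bb*, a histone gene (71.4). *Oaz1*, the antizyme of ornithine decarboxylase, followed with 68.8, *Tmsb4x*, the actin-binding thymosin β4, with 68.5, and *Tpi1*, the glycolytic triosephosphate isomerase, with 68.1. In 3 further cases the strongest peak belonged to a neighbour, since the summit was nearest to *Polr2a* for *Slc35g3* (126.6), to *Tubb4b* for *Fam166a* (86.9) and to *Apoe* for *Apoc1* (71.0).

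Near the TSS, the median Pol II summit lay further downstream than the median Qki-5 summit. Over the 4195 overlapping pairs whose Qki-5 summit was within 2000 bp of a TSS, the Qki-5 summit was at a median of +17 bp from that TSS (quartiles −86.5 and +132) and the Pol II summit at +71 bp (quartiles −101 and +142), counted along the strand of the gene. That TSS was the one nearest to the Qki-5 summit, which favours short Qki-5 distances. Each measured to its own nearest TSS, 29.1% of the 4195 Qki-5 summits and 24.1% of 3894 Pol II summits with Qki-5 were within 50 bp, and 46.9% and 51.5% were within 100 bp. Over all summits within 2000 bp of a TSS, 43.8% of 4530 Qki-5 summits and 28.7% of 15406 Pol II summits were upstream. The distance between the summits of a pair was under or equal to 500 bp in 87.2%, and the Qki-5 summit was upstream of the Pol II summit in 55.0%. The median distance was −21 bp (quartiles −154 and 138), which is small beside its spread. It was between −19 and −39 bp under the 8 alternative settings tried for it, but it was 0 bp in the quintile of pairs with the strongest Pol II and 3 bp in the quintile with the widest Pol II peaks. Outside promoters, the signed difference in 1744 pairs, along the strand of the nearest TSS, had a median of 3 bp (quartiles −122.25 and 136). The summits were within 100 bp of each other in 42.3% of these pairs.

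The offset differed between promoter types. At divergent promoters, with a TSS of the opposite strand within 1000 bp upstream, 40.6% of 799 Qki-5 summits and 28.5% of 2173 Pol II summits were within 50 bp of their own nearest TSS, and 36.0% and 11.4% were upstream of it. A summit nearer to the opposite TSS is measured to that one, which by construction shortens distances and lowers the upstream shares. At unidirectional promoters 24.7% of 3731 Qki-5 summits and 18.2% of 13233 Pol II summits were within 50 bp. The median Qki-5 to Pol II distance was +32 bp (quartiles −87.5 and 259.5) in the 775 pairs at divergent promoters and −32 bp (quartiles −167 and 106) in the 3420 at unidirectional ones, with the strand set by the TSS nearest to the Qki-5 summit. From that TSS, 41.8% of the Pol II summits in the 775 pairs were upstream, so the direction depends on the TSS chosen. Divergent promoters also carried Qki-5 more often, at 42.2% (40.4 to 44.1) of 2803 with Pol II against 32.2% (31.3 to 33.2) of 9076 unidirectional ones. Part of the gap stood beside stronger Pol II, since the shares of the Pol II deciles to which these promoters belong averaged 36.5% and 34.0%.

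**Figure D3:**
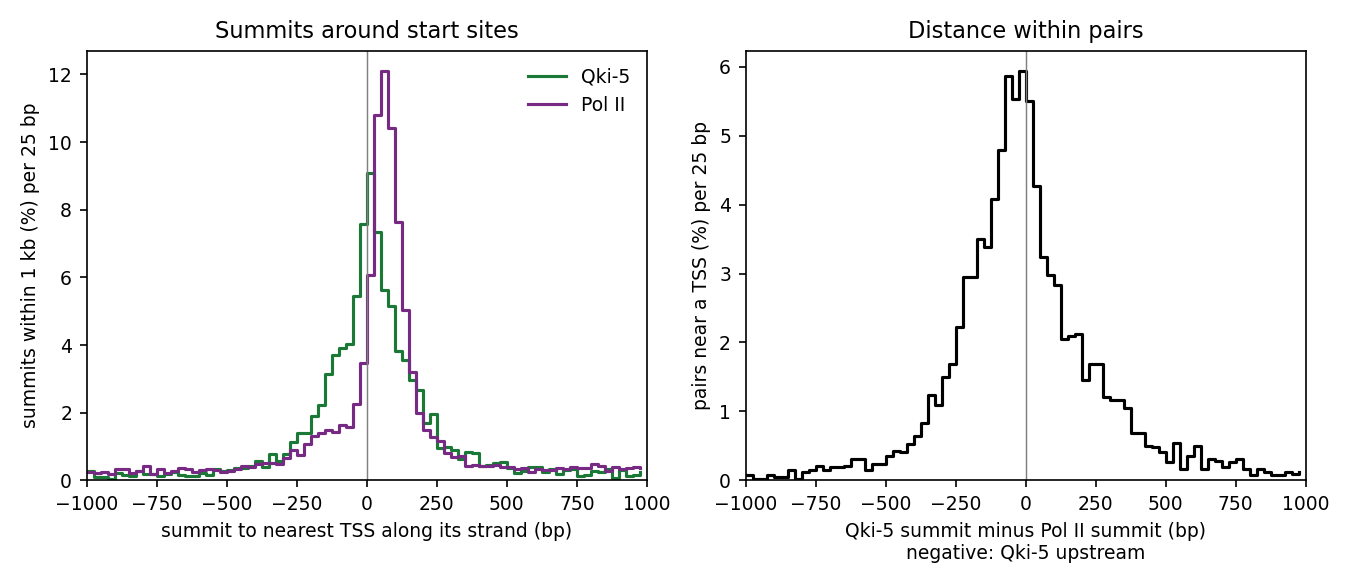
Left, distance of summits to the nearest TSS along its strand (bp), as the share of summits within 1 kb per 25-bp bin, for Qki-5 and Pol II. Right, Qki-5 summit minus Pol II summit (bp) in overlapping pairs near a TSS. In the pairs on the right, the medians are +17 bp for Qki-5 and +71 bp for Pol II from the TSS nearest to the Qki-5 summit, and the difference has a median of −21 bp.

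The share of Pol II-bound promoters with Qki-5 was compared between gene groups, beside the 34.6% of all protein-coding promoters with Pol II and beside the average share in the Pol II deciles of the group's own members. The lists are small and were chosen with results of these data known, so the values are descriptions. Among the lists with 20 or more Pol II-bound genes, the hnRNP and SR genes had the highest share. Of 31 hnRNP and SR protein genes, which bind nascent RNA and set splice choices, all had Pol II and 24 had Qki-5 (77.4%, 58.9 to 90.4), where the Pol II deciles gave 48.2%. *Hnrnph1* had a Qki-5 fold of 9.91 and a Pol II fold of 32.8, *Hnrnpk* 7.74 and 25.03, *Hnrnph3* 7.30 and 37.2, and *Srsf3* 5.55 and 62.9. *Hnrnpc*, *Hnrnpdl*, *Hnrnpa0*, *Hnrnpll*, *Hnrnph2*, *Srsf4* and *Srsf12* had Pol II only. Of 20 core snRNP and SF3 genes with Pol II, 8 had Qki-5 (40%, 19.1 to 63.9), close to the 37.6% of their deciles.

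Immediate early genes, which are transcribed within minutes of a stimulus, had Qki-5 at 18 of 26 Pol II-bound promoters (69.2%, 48.2 to 85.7), where the deciles gave 53.3%. The AP-1 subunit gene *Junb* had a Qki-5 fold of 6.62 and a Pol II fold of 112.2, and the RNA-decay factor gene *Zfp36l1* had 7.27 and 101.5. *Btg2*, a partner of deadenylases, had 5.61 and 99.1. *Fos* (43.3), *Egr2* (22.6) and *Arc* (18.5) had Pol II and no Qki-5 peak, and *Egr3* had neither. Factors that hold or release paused Pol II had Qki-5 at 12 of 20 promoters (60.0%, 36.1 to 80.9), where the deciles gave 39.7%. These were led by *Hexim1*, the inhibitor of the kinase P-TEFb (6.51 and 51.5), and *Aff4*, the scaffold of the super elongation complex (7.90 and 45.6), and included *Cdk9*, the P-TEFb kinase (4.99 and 15.2). The gene of the largest Pol II subunit, *Polr2a*, had 8.23 and 126.6, the second highest Pol II fold of all peaks, and 6 of 13 Pol II subunit genes had Qki-5 (46.2%, 19.2 to 74.9, with 39.8% from their deciles). The intervals cover counting error only and make no allowance for the choice among 31 lists, so a gap between a list and its deciles was not tested.

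In other broadly expressed gene groups the share lay on either side of that of their Pol II deciles. Qki-5 was found at 37 of 81 cytosolic ribosomal protein genes with Pol II (45.7%, 34.6 to 57.1, with 50.1% from their deciles), 34 of 79 genes of oxidative phosphorylation (43.0%, with 43.1%) and 21 of 68 genes of Mediator and general transcription factors (30.9%, with 36.7%). It was found at 29 of 63 genes of translation initiation and elongation factors (46.0%, 33.4 to 59.1, with 35.9%), 32 of 78 genes of mitochondrial ribosomal proteins (41.0%, 30.0 to 52.7, with 35.3%) and 9 of 20 aminoacyl-tRNA synthetase genes (45%, 23.1 to 68.5, with 34.97%). Replication-dependent histone genes, which are intronless and arranged in clusters, had strong Pol II (median fold 35.6). Qki-5 was found at 20 of their 63 promoters with Pol II (31.7%, 20.6 to 44.7), where the deciles gave 53.6%. Histone copies are near-identical and neighbours share peaks, so their assignment is uncertain. Of 22 cholesterol biosynthesis genes, all of which had Pol II, 5 had Qki-5 (22.7%, 7.82 to 45.4, with 32.3% from the deciles). *Cyp51*, the lanosterol demethylase, had 9.96 and 16.9, *Msmo1*, a sterol C4 oxidase, 7.96 and 19.8, *Hmgcs1*, the HMG-CoA synthase, 6.33 and 35.8, *Fdps* 5.31 and 6.23, and *Ggps1* 4.29 and 20.7. Among the NSC markers *Sox9* had 8.05 and 102.1 and *Vim* 6.40 and 92.9, and among the precursor markers *Olig1* had 6.44 and 30.7. *Cnp* (5.56 and 33.4) was the only mature marker with both. *Qk* itself carried both proteins, with a Qki-5 fold of 8.13 and a Pol II fold of 14.9.

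**Figure D4:**
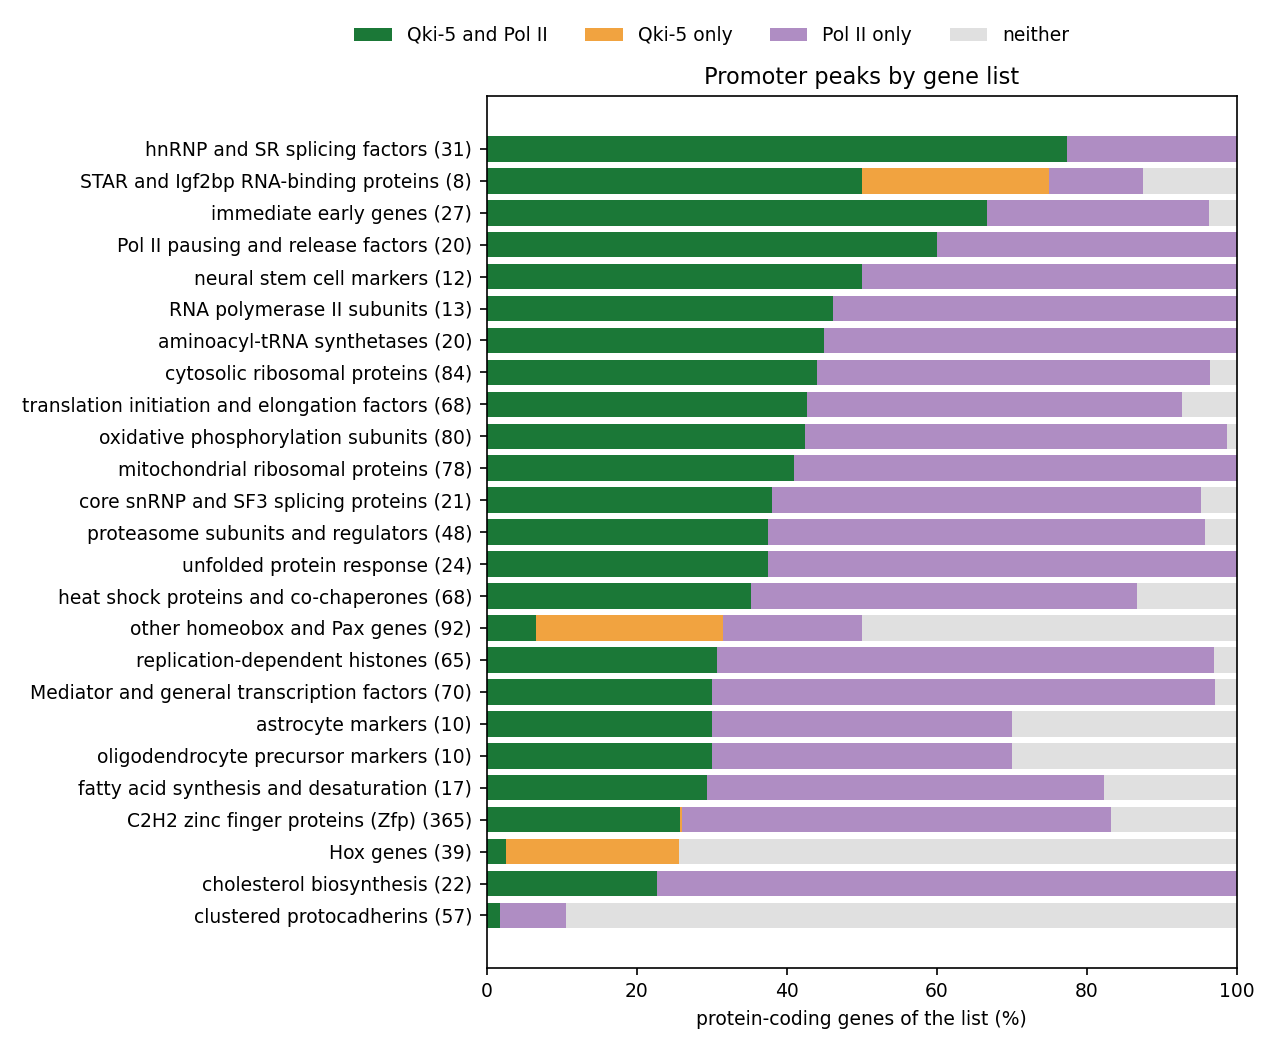
Share of the protein-coding genes of each list (%) with Qki-5 and Pol II, Qki-5 only, Pol II only or neither at the promoter, with the number of genes in parentheses. The hnRNP and SR list has Qki-5 and Pol II at 24 of 31 genes, and Qki-5 without Pol II is found mainly in the Hox list and the other homeobox and Pax list.

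Promoters on the X chromosome had few Qki-5 peaks. Qki-5 was called at 28 of 359 Pol II-bound protein-coding promoters on X (7.80%, 5.25 to 11.1), against 35.4% (34.6 to 36.3) of 11519 on autosomes, where single chromosomes ranged between 30.3% and 45.3%. Pol II was weaker on X, with a median promoter fold of 10.6 against 16.0 on autosomes, but the Pol II deciles of the X promoters gave 25.2%. Of all Qki-5 peaks on X, 37 of 91 overlapped Pol II (40.7%), below every autosome (69.6% to 87.8%). The copy number of X in these cells was not given in the sources used here, and its part in the result was not tested. Among the other properties, the Qki-5 share of Pol II-bound promoters was 43.6% in the quintile with the highest observed over expected CpG at the TSS and 23.3% in the lowest, where the Pol II deciles gave 38.3% and 28.2%. Genes over 5 kb with Qki-5 at the promoter had a further Pol II peak in the body in 34.3%, against 27.4% of those without Qki-5. Within the strongest quintile of promoter Pol II fold these shares were 40% and 39.7%, and within the second strongest 35.3% and 30.8%. In the weaker quintiles, in order, they were 31.6% and 28.3%, 28.2% and 25.3%, and 24.3% and 20.3%.

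The share with Qki-5 was similar for long non-coding genes. Over all 55450 annotated genes, Qki-5 was called at 10.2% of promoters and Pol II at 28.4%. Of the Pol II-bound promoters, 35.7% of lincRNA genes and 34.9% of antisense genes had Qki-5. Antisense genes and neighbours often share a promoter with a protein-coding gene, so these promoters are not separate observations. Qki-5 without Pol II was more frequent there, at 46 lincRNA genes (15.1% of those with Qki-5).

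Qki-5 without Pol II was found at 148 protein-coding genes, 0.674% of all and 3.48% of the 4258 with Qki-5, and 32 of the 148 (21.6%) were Hox, other homeobox or Pax genes. How often it was found depended on the choice of peaks and genes. Over all genes the share of Qki-5-bound promoters without Pol II was 5.51%, and it was 9.42% with a fold of at least 5 in both lists, 14.9% counting only the gene nearest to each summit, and 22.1% with as many Pol II as Qki-5 peaks. The gap to the nearest Pol II peak was large, with a median of 62606 bp for the 367 Qki-5 promoter peaks without Pol II, and only 9 of the 148 genes had a Pol II peak within 10 kb. Of the 131 Hox, other homeobox and Pax genes, which set body axis and cell identity in the embryo, 39 had Qki-5 and 32 of these had no Pol II (82.1%), beside the 3.48% over all genes with Qki-5. Among 39 Hox genes, 9 had Qki-5 only and 29 had neither. These 9 lie in the HoxA cluster, where 29 Qki-5 peaks covered 26.7 kb of 109.3 kb and 28 of them had no Pol II, with 2 Pol II peaks in the cluster. Of the 29, 7 overlapped a *Qk*-/- Qki-5 peak, and 10 of the 427 *Qk*-/- Qki-5 peaks lay in this cluster. HoxB held 2 Qki-5 peaks, HoxC 3 and HoxD none. In 4 further families, looked up after the values were seen, Qki-5 only was found at 8 of 44 forkhead genes, 3 of 6 Gata genes (*Gata2*, *Gata3* and *Gata6*), 3 of 16 T-box genes and 1 of 19 Sox genes (*Sox1*).

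A large share of these sites was also called in *Qk*-/- cells. At the strongest promoter peak, 45 of the 148 genes with Qki-5 only (30.4%, 23.1 to 38.5) overlapped a *Qk*-/- Qki-5 peak, against 123 of 4110 genes with both (2.99%, 2.49 to 3.56). Over peaks, the share was 2.29% of Qki-5 peaks with Pol II and 10.8% of those without. The strong sites were those called in *Qk*-/- cells, with a median Qki-5 fold of 12.8 in the 45 genes and 5.61 in the other 103. All 10 genes with the strongest Qki-5 and no Pol II were among the 45. These included *Igf2bp3*, an oncofetal RNA-binding protein gene (48.1), *Tlx2* (37.5), *Slc32a1* (24.9), *Nr5a1* (23.5), *Foxl2* (17.9), *Tfap2a* (16.0) and *Shox2* (15.8). *Slc32a1* encodes the vesicular GABA transporter and, *Igf2bp3* aside, the others named encode transcription factors of development. The Qki-5 signal at these 10 promoters therefore cannot be told apart from the background of the antibody, where Qki-5 remaining in *Qk*-/- cells was not tested.

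The 103 genes without a *Qk*-/- peak still held 20 Hox, homeobox and Pax genes. The strongest of the 103, listed after the values were seen and counting 1 gene for each peak, were *Prdm6* (12.2), *Hoxa3* (11.5), *Foxb2* (10.3), *Pax5* (10.3), *Dlx2* (9.59), *Sp8* (9.59), *Meis2* (9.48), *Gsc* (9.21) and *Onecut2* (9.20), all regulators of development, and *9230102O04Rik* (9.54). *Gm28308* shares the peak of *Hoxa3*, and *4930412O13Rik* that of *9230102O04Rik*. *Hoxa3* lies in the HoxA cluster, where 10 *Qk*-/- Qki-5 peaks were called. *Igf2bp1*, a paralog of *Igf2bp3*, also had Qki-5 only (7.55). The *Qk*-/- list is short (427 peaks against 7539), so a site that is not in it may still have been under its threshold, which was not tested. Leaving out every Qki-5 peak that overlaps a *Qk*-/- peak changed the share of Qki-5-bound promoters without Pol II to 4.70% over all genes, against 5.51% with them.

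The 4 kinds of Qki-5 sites differed in sequence. Within 100 bp of the summit, promoter peaks with Pol II had a median of 20 CpGs and 68.7% GC, and promoter peaks without Pol II had 7 CpGs and 53.7% GC. Outside promoters the medians were 3 CpGs with and without Pol II, with 53.2% and 49.8% GC. At promoters the quartiles were 14 and 26 CpGs with Pol II and 3 and 15 without. The *Mt1* and *Mt2* summits, which have Pol II, had none in the 29 bases centred on them. Summits without Pol II lay further from a TSS. Of the Qki-5 summits within 2000 bp of a TSS, 87.5% with Pol II and 46.9% without were within 500 bp. The part of this distance in the sequence and motif differences was not tested. The TSSs of the 148 genes with Qki-5 only were not poor in CpG (median 14.5 within 100 bp, against 17 at Pol II-only and 3 at genes with neither).

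Motifs followed the same division. They were searched on both strands within 100 bp of the summit, and a match is a description, not a binding site. The GC box (GGGCGG) was in 56.6% (55.1 to 58.1) of Qki-5 promoter peaks with Pol II, 21.5% of those without, and 41.6% of all protein-coding TSS windows of the same length. The Ets motif (CCGGAAG) was in 13.01% and 5.45% (9.73% of TSS windows) and the E box (CACGTG) in 9.49% and 3.27% (5.64%). All TSS windows include genes with neither protein. In TSS windows of genes with both and with Pol II only, the GC box was in 63.0% and 59.0%. There the Ets motif was in 16.7% and 15.6%, and the E box in 9.66% and 6.19%. At genes with both proteins, the E box was in 9.66% of windows centred on the TSS, but in only 4.62% of windows centred on the Pol II summits with Qki-5, so that windows at Qki-5 summits and at TSSs held it at similar rates. The TATA motif (TATAAA) went the other way, with 2.41% and 8.99% (7.96%). Outside promoters, Qki-5 peaks with and without Pol II held 4 motifs at similar rates, above those of Pol II peaks without Qki-5, whose median GC was 48.3% and for which the part of base composition was not tested. The NFI motif part (TTGGCA) was in 27.3% (25.2 to 29.4) and 30.5% (27.9 to 33.2), against 12.1% (11.6 to 12.6) of Pol II peaks outside promoters without Qki-5. The Sox motif (ACAAAG) was in 25.9% and 25.4%, against 17.1%, the C/EBP motif (TTGCNNAA) in 13.9% and 15.1%, against 7.63%, and the AP-1 motif (TGANTCA) in 11.4% and 10.7%, against 6.41%. The RNA element bound by Qki, searched as ACTAAC, was in 1.99% and 3.27% of promoter peaks with and without Pol II, 3.96% and 4.27% outside promoters, 5.47% of Pol II peaks outside promoters without Qki-5, and 3.19% of TSS windows.

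**Figure D5:**
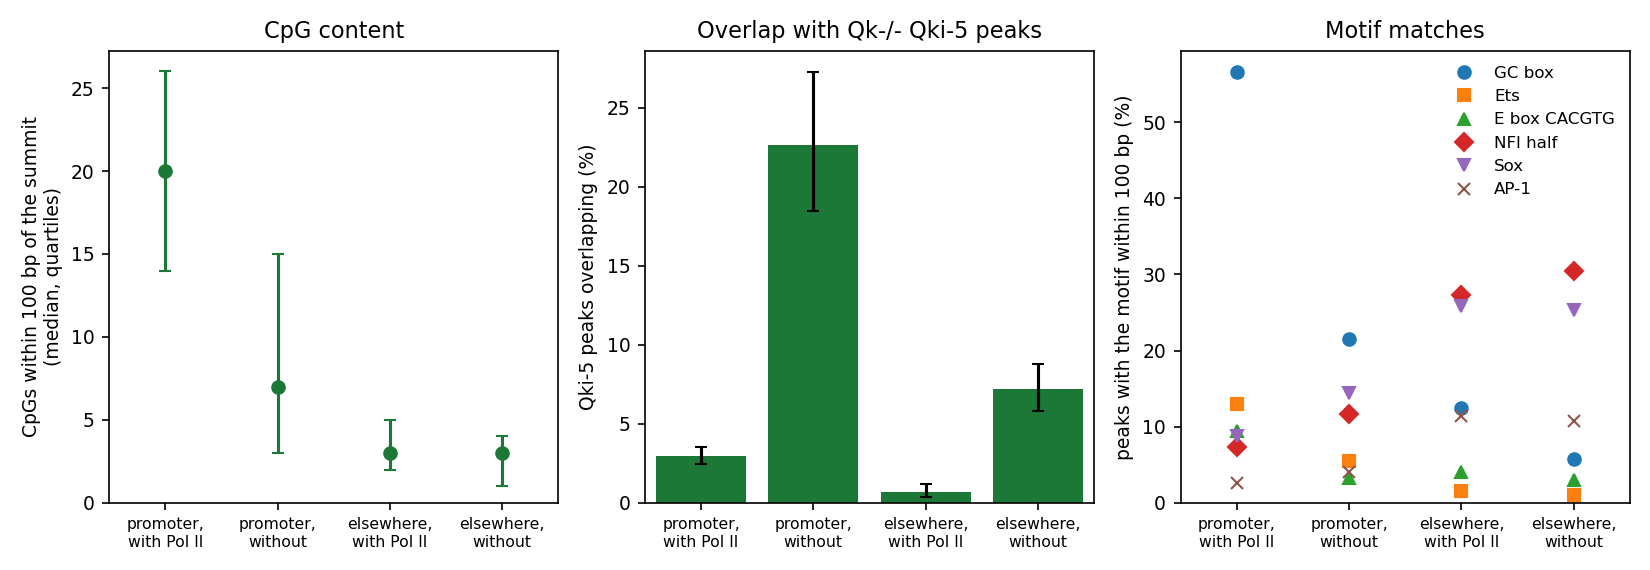
Qki-5 peaks in 4 classes, at promoters or elsewhere and with or without Pol II. Left, CpGs within 100 bp of the summit (median and quartiles). Middle, share overlapping a *Qk*-/- Qki-5 peak (%), with 95% Clopper-Pearson intervals. Right, share with a motif match within 100 bp (%). Promoter peaks with Pol II have the most CpGs (median 20), and promoter peaks without Pol II most often overlap a *Qk*-/- peak (22.6%).

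Qki-5 peaks outside promoters were stronger with Pol II, in contrast to those at promoters. Their median fold was 5.81 with Pol II and 5.44 without, and their median width 381 and 308 bp. Among Pol II peaks outside promoters, the median fold was 5.42 with Qki-5 and 4.25 without. The Qki-5 medians include peaks that overlap a Pol II peak reaching a promoter, whereas the Pol II medians leave such Pol II peaks out. The strongest with Pol II lay at chr9:60311594-60312179 in an intron (Qki-5 fold 19.7, Pol II fold 5.70), with *2010001M07Rik* as the nearest gene. The next was between genes at chr4:97192891-97193622, nearest to *Gm10192* (15.5 and 7.44). None of the 5 strongest with Pol II overlapped a *Qk*-/- peak, and all of the 5 strongest without Pol II did. The strongest without Pol II, at chr6:51176816-51182846 with a fold of 21.6, was nearest to *Mir148a*. Over all Qki-5 peaks outside promoters, 0.686% (0.355 to 1.195) with Pol II and 7.19% (5.79 to 8.80) without overlapped a *Qk*-/- peak.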

How the data were processed

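According to the methods, the authors trimmed the reads with Trim Galore, aligned them to mm10 with Bowtie2 and removed duplicates with SAMtools, whereas the submitters' processing notes name bcl2fastq and Bowtie 1.2.2. Both name MACS2 2.1.2, run for each library against its input at a q-value of 0.05. The fold deposited by the authors is the ratio of summit pileup to local background. The −log10 p and −log10 q-value columns were also deposited by the authors. The *Qk*-/- Pol II list and both Srebp2 lists were not used.
Overlaps, distances and shares were computed with pandas 2.3.3, numpy 2.4.6 and scipy 1.17.1 in Python 3.11.15, sequences were read with pysam 0.24.0, and figures were drawn with matplotlib 3.10.9. The calculations were tested on simulated peaks. A pair was a Qki-5 peak and the overlapping Pol II peak with the nearest summit, and the strongest peak at a promoter gave its fold. The 6 Qki-5 and 17 Pol II peaks on sequences without an annotated TSS have no distance. The average over deciles is the mean, over a list's Pol II-bound genes, of the Qki-5 share in their Pol II fold decile.
Genes are named for the best mean rank in both lists, the strongest peak of 1 protein without the other, the largest rank differences, membership of 31 lists, or nearness to the 5 strongest Qki-5 peaks outside promoters with or without Pol II. Genes outside this rule are marked, and some genes of the lists are not reported here. The members, lists and rules were chosen with earlier results of these data known. Forkhead, Gata, T-box and Sox genes and the list of genes without a *Qk*-/- peak were added after seeing the data. Of 17 motifs searched, those not described were CCAAT, CRE (TGACGTCA) and its part (TGACGT), YY1 (AAGATGGC), and the longer NFI, X box, Nrf1 and Ronin/ZNF143 motifs.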

Additional observations from a re-analysis of the deposited data

How the results depend on the processing

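No paired analysis was possible because each antibody has 1 library and no test was made. Under 15 alternative settings, 6 results gave 43 values, of which 19 stayed within the counting interval of the reported value, 22 moved outside it and 2 changed sign, and beyond what each setting's construction shows the causes were not tested. Keeping only as many Pol II peaks as Qki-5 peaks, the strongest, moved the most: 48.5% of Qki-5 peaks overlapped Pol II (79.3% as reported), 43.4% of Pol II peaks overlapped Qki-5 (17.2%), 44.6% of Pol II-bound promoters had Qki-5 (34.1%), 22.1% of Qki-5-bound promoters had no Pol II (5.51%), and the rank correlation of fold was 0.10 (−0.08). The rank correlation was also positive (0.083) over pairs near a TSS. With a fold of at least 5 the Qki-5 overlap was 65.8% and the promoter shares 20.4% and 9.42%. Without Qki-5 peaks that overlap a *Qk*-/- peak they were 80.7%, 33.3% and 4.70%. An overlap of at least 50% of the narrower peak gave 78.0%. A q-value under 0.01 gave 18.3% of Pol II peaks and 33.3% of Pol II-bound promoters with Qki-5. Promoters of 1000 bp gave 33.3% and 4.51%, and the nearest gene only gave 28.9% and 14.9%. The share of Qki-5-bound promoters without Pol II was 6.36% with summits inside the promoter and 3.48% for protein-coding genes. The median summit distance (−21 bp) was −39 bp with the TSS nearest to the Pol II summit, −32 bp at unidirectional promoters and −31 bp with Pol II peaks under 2000 bp. The sources used here give no read totals, so how depth limits either list is unknown.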

Other observations

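Qki-5 peaks were crowded in a few regions. Of the 1786 bins of 1 Mb with a Qki-5 peak, the median held 3 and the fullest, at 52 Mb of chromosome 6 with the HoxA cluster, held 37, of which 33 had no Pol II and 11 overlapped a *Qk*-/- peak. The next without Pol II was at 126 Mb of chromosome X, with 28 Qki-5 peaks, no Pol II peak and 2 protein-coding genes, where 5 peaks overlapped a *Qk*-/- peak and the median Qki-5 fold was 4.73. These 28 are among the 91 Qki-5 peaks on X.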
